A study of Mus musculus with 12 samples.

Results

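The 10 heat shock protein and chaperone genes described here were chosen by name and followed across 4 ages of mouse muscle stem cells: Hspa1a, Hspa1b, Hspa5, Hspa8, Hsph1, Hspb1, Dnajb1, Hsp90aa1, Hsf1 and Bag3. Each was read from the probe set with the highest mean signal among those carrying exactly 1 gene symbol. Of the 10 genes, 8 had such a probe set, out of 19938 genes measured in this way. Hspa1b was found only on a probe set shared with Hspa1a, which was not used, and Hsf1 had no probe set with exactly 1 symbol, so neither is given a value.

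The cells were satellite cells, the stem cells of skeletal muscle that carry the transcription factor Pax7, sorted by flow cytometry for the green fluorescence of a Pax7-ZsGreen reporter. All animals were heterozygous for the reporter, with C57BL/6 given as the strain and wild-type SV129 mice named for the negative sorting control, and no animal without the reporter was on an array. Fetal cells (E17.5) came from whole forelimbs and hindlimbs of 4 pooled mice, and the other stages were hindlimb cells: adolescent (postnatal day 21, 6 mice), adult (2 to 3 months, 8 mice) and aged (over 1 year, 8 mice). Each stage had 3 single-colour Affymetrix arrays. All muscle was digested with collagenase and dispase for 25 minutes at 37 °C before sorting, so no array shows cells that were not warmed and dissociated. The labels do not say whether the 3 arrays of a stage came from separate pools of mice, so the p-values rest on variation between these arrays alone, part of which may be technical.

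Heat shock proteins are chaperones that bind unfolded or stressed proteins and help them to fold or to be degraded. When unfolded proteins accumulate, the factor HSF1, product of Hsf1, binds heat shock elements in the promoters of inducible chaperone genes and raises their transcription, while constitutive chaperones such as HSC70 are made at all times. The machinery works as a relay, in which J-domain proteins hand a client to HSP70, exchange factors such as BAG3 and HSP110 release it, and HSP90 completes its maturation. In satellite cells, enzymatic dissociation is known to induce stress genes, and quiescent stem cells make less protein than dividing ones.

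Several properties of the arrays bear on the values below. The median deposited log2 signal of an array was 6.13 to 6.29, and 3 arrays per stage limit the precision. The mean of 1210 olfactory and vomeronasal receptor probe sets, taken as background, was 3.79 to 3.91 on 9 arrays but 4.47 and 4.50 on adult replicates 2 and 3 and 4.31 on aged replicate 1. All 8 measured genes lay above the 95th percentile of those receptors on all 12 arrays. Replicates 2 and 3 of a stage correlated with each other across genes at 0.996 to 0.999, more than either did with replicate 1 (0.972 to 0.993). The mean of 9 cycling cell markers was 8.32 on adult replicate 1, against 6.54 and 6.49 on the other adult arrays. As a check of the labelled cell type, 10 of 10 satellite cell markers, Pax7 among them, lay above that receptor percentile on every array. Their mean was 9.48 to 9.55 on fetal, 10.59 to 10.65 on adolescent, 10.83 to 10.91 on adult and 10.79 to 10.85 on aged arrays. In each later stage 9 of the 10 were higher than in fetal cells, where 10.1% (adolescent), 19.1% (adult) and 16.4% (aged) of all genes were. These markers thus moved with Hspa1a, and their part in its difference was not tested. In pooled, sorted cells, fewer cells of a type and less RNA per cell cannot be told apart.

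An F-test in limma, with Benjamini-Hochberg adjustment over all genes, asked whether any stage stood apart, and 6 of the 8 genes passed it, where 41.6% of all genes did. Hspa1a had the widest range of the 8, 4.90 on the log2 scale from the lowest array to the highest, and ranked 321 of 19938 genes by the F-test (F = 108, adjusted p = 2.2e-07). Hspb1 followed (range 2.40, adjusted p = 8.21e-05), then Hsph1 (0.0018), Bag3 (0.0023), Hsp90aa1 (0.0044) and Dnajb1 (0.0046). The constitutive HSP70 gene Hspa8 (adjusted p = 0.14) and the endoplasmic reticulum gene Hspa5 (adjusted p = 0.45) did not pass. Hspa8 passed with quantile normalization repeated (adjusted p = 0.0356) or with a trended and robust variance (0.0246), and Hspa5 without the 3 arrays of raised receptor background (0.0258), while Hsph1 did not pass with quantile normalization repeated (0.14). Values of Hspa8 and Hspa5 spanned 0.26 and 0.46 over all 12 arrays.

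**Figure D1:**
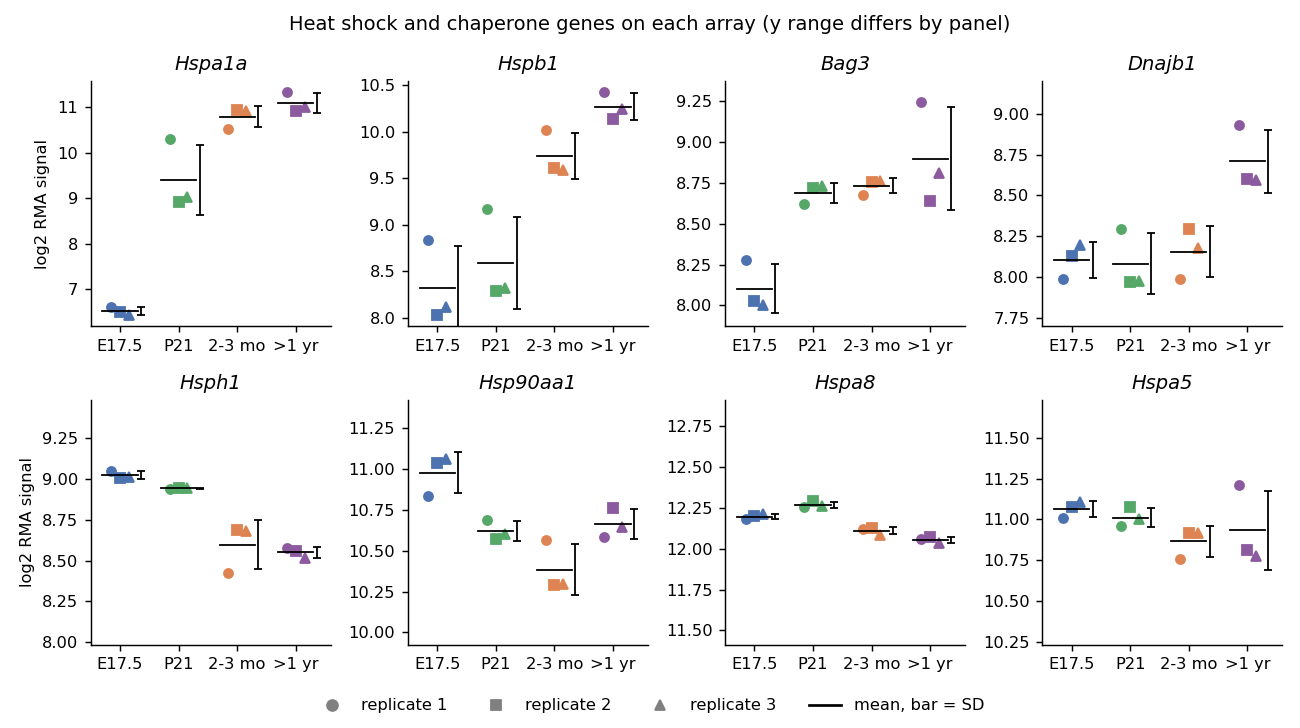
Log2 RMA signal of the 8 measured genes on each of the 12 arrays by stage (E17.5, fetal; P21, adolescent; 2-3 mo, adult; >1 yr, aged); marker shape gives the replicate number, the horizontal line the stage mean and the bar the SD of 3 arrays. Hspa1a climbs from 6.44 to 6.61 on the fetal arrays to at least 10.93 on the aged arrays, while Hspa8 stays between 12.04 and 12.29; the y range differs by panel.

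Hspa1a and Hspa1b encode the stress-inducible cytosolic HSP70 and lie close together on chromosome 17. The 150 bases before their RefSeq start sites (GRCm38.p6) are shown because heat induction of these genes acts through the promoter, and to set the copies side by side. Capitals mark the outer bases of the motif GAANNTTC, a pair of inverted heat shock element units, found 104 to 97 bases before the start in both genes.
Hspa1a, chr17:34972157-34972306, minus strand: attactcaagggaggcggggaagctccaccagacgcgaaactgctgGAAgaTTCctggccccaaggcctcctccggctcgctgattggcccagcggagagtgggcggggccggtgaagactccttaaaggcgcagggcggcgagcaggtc
Hspa1b, chr17:34959239-34959388, minus strand: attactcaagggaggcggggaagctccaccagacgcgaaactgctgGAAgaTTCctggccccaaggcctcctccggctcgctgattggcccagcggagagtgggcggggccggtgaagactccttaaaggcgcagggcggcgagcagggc
Over the full windows of 300 bases the copies were identical at 296 positions (98.7%). GAANNTTC, searched on both strands, occurred in 7.86% of 32851 promoter windows of that length. The Hspa1a values may include Hspa1b transcripts, but the promoter windows cannot show this, and probe sequences were not compared.

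Hspa1a stood at 6.61, 6.51 and 6.44 on the fetal arrays and at 10.29, 8.91 and 9.02 on the adolescent arrays. It reached 10.52, 10.94 and 10.91 on the adult arrays and 11.33, 10.93 and 11.01 on the aged arrays. The fetal arrays were far below all others, adolescent replicate 1 stood above its 2 companions, and only adult and aged arrays overlapped. Hspa1a rose 7.41-fold from fetal to adolescent cells (log2 difference 2.89 ± 0.28, SE from the fit of all 4 stages, n = 3 arrays each, as in all comparisons here; adjusted p = 1.01e-05). Between adolescent and adult cells it rose a further 2.61-fold (1.38 ± 0.28, adjusted p = 0.0054). The aged and adult means differed by 0.30 (95% interval -0.32 to 0.92), which did not pass. From fetal to aged cells the rise was 23.8-fold (4.57 ± 0.28, adjusted p = 7.31e-08).

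The rise of Hspa1a after the fetal stage passed under every alternative tried, and without fetal replicate 1 and adolescent replicate 1 it was 2.49. The step from adolescent to adult cells was less firm. It was 1.83 without adolescent replicate 1, 1.09 (adjusted p = 0.20) with replicates 2 and 3 of each stage averaged, and 1.11 (adjusted p = 0.14) without the 3 arrays of raised receptor background.

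Hspb1 encodes HSP27, a small heat shock protein that holds unfolding proteins and is abundant in muscle and vessel walls. Its promoter is printed because it holds the same motif, GAANNTTC, in 2 places, 117 to 110 and 97 to 90 bases before the start, again with the outer bases in capitals.
Hspb1, chr5:135887769-135887918, plus strand: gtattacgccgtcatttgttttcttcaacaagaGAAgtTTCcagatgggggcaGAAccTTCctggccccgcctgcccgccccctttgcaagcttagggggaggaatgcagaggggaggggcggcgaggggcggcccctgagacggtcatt
Its signal was 8.83, 8.03 and 8.11 on the fetal arrays and 9.17, 8.29 and 8.32 on the adolescent arrays. Adult arrays gave 10.02, 9.61 and 9.59, and aged arrays gave 10.43, 10.13 and 10.25. Fetal and adolescent arrays overlapped, adult arrays lay above both and aged arrays above the adult ones, and within each of the 4 stages replicate 1 was the highest. Hspb1 rose 2.22-fold from adolescent to adult cells (1.15 ± 0.25, adjusted p = 0.0073) and 3.85-fold from fetal to aged cells (1.95 ± 0.25, adjusted p = 3.93e-05). The adolescent and fetal means differed by 0.27 (95% interval -0.27 to 0.81). The aged and adult means differed by 0.53 (-0.01 to 1.07, adjusted p = 0.24), so a difference of the size seen from adolescent to adult cells lay just outside that interval. A second Hspb1 probe set gave an aged minus fetal difference of 2.00. With replicates 2 and 3 averaged, the difference between adult and adolescent cells was 1.08 (adjusted p = 0.15).

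Bag3 encodes an exchange factor of HSP70 that directs damaged filament proteins to autophagy in muscle. In its promoter window GAANNTTC occurred once, after the start site. The fetal arrays gave 8.28, 8.03 and 8.00 and the adolescent arrays 8.62, 8.72 and 8.73. On adult arrays it stood at 8.68, 8.76 and 8.76, and on aged arrays at 9.25, 8.64 and 8.81. Fetal arrays lay below the other 9, which overlapped one another, and aged replicate 1 was the highest of the 12. Bag3 rose from fetal to adolescent cells (log2 difference 0.59 ± 0.14, adjusted p = 0.0098) and was 1.74-fold higher in aged than in fetal cells (0.80 ± 0.14, adjusted p = 0.000558). The adult and adolescent means differed by 0.04 (95% interval -0.26 to 0.35). With replicates 2 and 3 averaged, the difference between adolescent and fetal cells was 0.53 (adjusted p = 0.19).

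Dnajb1 encodes HSP40, the J-domain partner that delivers clients to HSP70 and is itself heat-inducible. None of the motifs searched occurred in its 2 RefSeq promoter windows. Its values were 7.99, 8.13 and 8.20 on fetal, 8.30, 7.97 and 7.98 on adolescent and 7.99, 8.30 and 8.18 on adult arrays, against 8.93, 8.60 and 8.60 on aged arrays. The aged arrays lay above all 9 others, which overlapped. Dnajb1 was 1.52-fold higher in aged than in fetal cells (0.61 ± 0.13, adjusted p = 0.0028) and 1.55-fold higher than in adolescent cells (0.63 ± 0.13, adjusted p = 0.0048). With replicates 2 and 3 averaged, the aged minus adolescent difference did not pass (0.63, adjusted p = 0.10). Its 1.47-fold rise from adult to aged cells (0.56 ± 0.13, adjusted p = 0.0385) was near the threshold. That rise did not pass with any aged array or with adult replicate 2 or 3 left out (adjusted p = 0.05 to 0.11), nor with quantile normalization repeated (0.40, adjusted p = 0.18), with centred arrays (0.50) or in a fit of these 2 stages alone.

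Hsph1 encodes HSP110, an exchange factor of HSP70 that also dissolves protein aggregates. In the first of its 2 RefSeq windows TTCNNGAA, the other pairing of heat shock element units (8.52% of all windows), occurred 33 to 26 bases before the start. A run of 3 alternating GAA and TTC units, each 2 bases from the next, followed the start and was present in 0.603% of windows, a search added after the first motifs had been seen. Its arrays gave 9.05, 9.003 and 9.01 (fetal), 8.94, 8.94 and 8.95 (adolescent), 8.42, 8.69 and 8.68 (adult) and 8.58, 8.56 and 8.51 (aged). The 6 older arrays lay below the 6 younger ones. Hsph1 fell by 0.34 ± 0.09 from adolescent to adult cells (adjusted p = 0.0219) and by 0.47 ± 0.09 from fetal to aged cells (adjusted p = 0.0013), a 1.39-fold change. Adult and adolescent means differed by -0.10 (adjusted p = 0.61) with quantile normalization repeated, and by -0.24 (adjusted p = 0.09) with centred arrays. That fall also failed to pass with any 1 adolescent array left out (adjusted p = 0.06 to 0.07). With replicates 2 and 3 averaged, the aged minus fetal difference was -0.47 and did not pass (adjusted p = 0.0589). The adult minus fetal difference (-0.42 ± 0.09, adjusted p = 0.003) became -0.16 (adjusted p = 0.34) with quantile normalization repeated, and the aged minus adolescent difference (-0.39 ± 0.09) became -0.29 (adjusted p = 0.14).

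Hsp90aa1 encodes the inducible cytosolic HSP90, which matures kinases and receptors late in their folding. It gave 10.84, 11.03 and 11.06 on fetal and 10.69, 10.57 and 10.60 on adolescent arrays, and 10.57, 10.29 and 10.30 on adult and 10.58, 10.76 and 10.65 on aged arrays. Fetal arrays were the highest, and the lowest 2 were adult replicates 2 and 3. From fetal to adult cells Hsp90aa1 fell by 0.60 ± 0.11, a 1.51-fold change (adjusted p = 0.000751). With replicates 2 and 3 averaged, the adult minus fetal difference was -0.51 and did not pass (adjusted p = 0.0645). Without the 3 arrays of raised background it was -0.41. The smaller falls from fetal to adolescent (-0.36 ± 0.11, adjusted p = 0.0339) and from fetal to aged cells (-0.31 ± 0.11, adjusted p = 0.0373) were near the threshold. The first did not pass in 5 of 6 fits that left out an array, and the second did not pass without fetal replicate 2 or 3 or aged replicate 1 or 3. Aged and adult means differed by 0.28 (95% interval 0.05 to 0.52, adjusted p = 0.18). Without adult replicate 1 that difference was 0.37 and passed (adjusted p = 0.0138). All 3 Hsp90aa1 probe sets gave fetal to adult differences between -0.65 and -0.59. Processed copies of Hsp90aa1 and Hspa8 exist in the genome, and the sources used here do not say how probes shared with them were treated.

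Hspa8 encodes HSC70, the HSP70 made without stress. Its values were 12.18, 12.20 and 12.21 on fetal, 12.25, 12.29 and 12.26 on adolescent, 12.12, 12.13 and 12.08 on adult and 12.06, 12.07 and 12.04 on aged arrays. On the probe set used, the arrays of different stages did not overlap, with adolescent arrays highest, then fetal, adult and aged arrays, but the steps were small. On the Hspa8 probe sets not used, fetal and adolescent arrays overlapped, and on the dimmest of them adult and aged arrays did too. No comparison passed. The widest difference, aged minus adolescent, was -0.21 (95% interval -0.39 to -0.04, adjusted p = 0.08), and it passed with quantile normalization repeated (adjusted p = 0.0277), after a filter on dim genes (0.0458), with a trended and robust variance (0.0132) or without the 3 arrays of raised background (0.0391). The intervals for Hspa8 excluded a 1.5-fold change in every comparison.

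Hspa5 encodes BiP, the HSP70 of the endoplasmic reticulum and the usual readout of the unfolded protein response. Its promoter is shown because it lacks both heat shock motifs and holds an endoplasmic reticulum stress element, CCAAT and CCACG with 9 bases between, 65 to 47 bases before the start, and a TATAA box at 26 to 22. Capitals mark the fixed bases of both.
Hspa5, chr2:34771940-34772089, plus strand: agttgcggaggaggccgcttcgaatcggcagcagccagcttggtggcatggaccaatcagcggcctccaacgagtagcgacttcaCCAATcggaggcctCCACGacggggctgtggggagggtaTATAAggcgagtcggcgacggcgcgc
The stress element occurred in 0.119% of windows and TATAA in 24.9%. Hspa5 read 11.01, 11.08 and 11.11 on fetal, 10.96, 11.07 and 11.00 on adolescent, 10.76, 10.92 and 10.92 on adult and 11.21, 10.81 and 10.77 on aged arrays. The stages overlapped except that adult arrays lay below the fetal and adolescent ones, and aged replicate 1 stood apart from its companions. No comparison of Hspa5 passed, and aged and fetal means differed by -0.13 (95% interval -0.39 to 0.13). Without aged replicate 1 that difference was -0.27 and passed (adjusted p = 0.044). Without the 3 arrays of raised background, aged replicate 1 among them, it also passed (adjusted p = 0.0153), as did the adult minus fetal difference (-0.31, adjusted p = 0.0367).

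Counted by comparison, 2 of the 8 genes were higher (Hspa1a and Bag3) and 1 was lower (Hsp90aa1) in adolescent against fetal cells, where 10.1% of all genes were higher and 8.68% lower. In adult against adolescent cells 2 were higher (Hspa1a and Hspb1) and 1 was lower (Hsph1), against 4.56% and 15.2% of all genes. In aged against adult cells only Dnajb1 passed, where 3.28% of all genes were higher and 0.216% lower. In adult against fetal cells 3 were higher and 2 lower, against 19.1% and 23.4%, and in aged against fetal cells 4 were higher and 2 lower, against 16.4% and 19.4%. In aged against adolescent cells Hspa1a, Hspb1 and Dnajb1 were higher and Hsph1 was lower, against 8.08% and 11.5%. The comparisons share arrays, so these counts are not independent of one another. The balance of higher and lower over all genes moved with scaling: in adult against adolescent cells it was 909 higher and 3032 lower as deposited, 1988 and 1980 with quantile normalization repeated, and 2233 and 2076 with centred arrays.

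**Figure D2:**
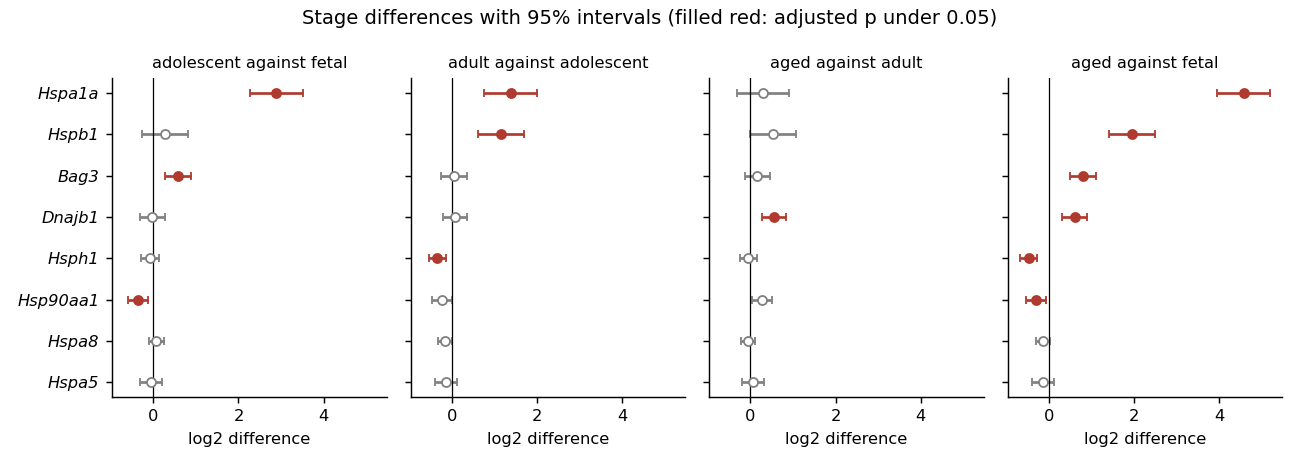
Log2 difference between stages (x axis) for the 8 measured genes (y axis) in 4 comparisons, with 95% intervals from limma; filled red points had an adjusted p under 0.05 and open grey points did not. Hspa1a shows the largest differences, 2.89 from fetal to adolescent and 4.57 from fetal to aged cells, while Hspa8 and Hspa5 lie near 0 in all panels.

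Gene lists measured on the same arrays were set beside these values. The mean of 25 immediate early genes, transcription factors and signal brakes that react within minutes to stimulation or tissue dissociation, was 8.38, 8.78 and 8.81 on fetal and 8.99, 9.01 and 9.04 on adolescent arrays. It was 9.53, 9.73 and 9.71 on adult and 10.33, 10.08 and 10.09 on aged arrays, so the stages did not overlap and followed the order of age. In aged against fetal cells 22 of these 25 genes rose and 0 fell (median difference 1.66, where the median of all genes was 0.02). Over all genes 16.4% rose and 19.4% fell. The phosphatase gene Dusp1 rose by 2.20 ± 0.11, the anti-proliferative gene Btg2 by 2.23 ± 0.14, Klf4 by 1.88 ± 0.11 and Junb by 2.65 ± 0.16. Against adult cells 6 of the 25 were higher in aged cells and 0 lower, where 3.28% and 0.216% of all genes were. Klf4 was one of those that were higher (0.90 ± 0.11). Aged replicate 1 had the highest immediate early mean and also the highest Hspa1a, Hspb1, Bag3, Dnajb1 and Hspa5. The part of dissociation in any of these differences was not tested.

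Markers of other cells moved too. The mean of 12 endothelial markers, all of them above the receptor percentile on every array, was 6.86 to 7.69 on fetal, 8.37 to 8.96 on adolescent, 7.75 to 7.79 on adult and 8.54 to 9.14 on aged arrays. Cdh5, the cadherin of vessel walls, was 9.38 on fetal replicate 1 against 8.31 and 8.28 on the other fetal arrays, and 10.66 on adolescent replicate 1 against 10.11 and 10.18. Hspb1 was higher on the same 2 arrays than on the others of their stage, but aged replicate 1, the highest in Hspb1, had the lowest endothelial mean of the aged arrays. Endothelial markers rose with Hspa1a in adolescent against fetal cells (11 of 12 higher, 0 lower) and in aged against fetal cells (12 of 12 higher). Of all genes 10.1% were higher and 8.68% lower in the first comparison, and 16.4% and 19.4% in the second. In adult against adolescent cells, where Hspb1 and Hspa1a rose, 0 of 12 were higher and 7 lower, against 4.56% and 15.2% of all genes. In aged against adult cells, where Dnajb1 rose, 8 of 12 were higher and 0 lower, against 3.28% and 0.216%. The mean of 9 pericyte and smooth muscle markers, all above the receptor percentile on every array, was 7.82 to 8.04 on fetal, 8.54 to 8.89 on adolescent, 8.25 to 8.37 on adult and 8.64 to 8.84 on aged arrays. Of these 9, 5 were higher and 3 lower in aged against fetal cells (median 1.54). The mean of 15 myofibre markers was 8.14 on fetal replicate 1 against 7.33 and 7.24 on the other fetal arrays, and 8.27 to 8.68 on adolescent, 7.45 to 7.84 on adult and 7.61 to 7.65 on aged arrays. In adult against adolescent cells 0 of the 15 were higher and 9 lower. Fetal replicate 1 also had the highest mean of 9 fibroblast markers, 9.32 against 8.65 and 8.68, where all later arrays lay between 8.76 and 9.18. Without fetal replicate 1 and adolescent replicate 1, Hspb1 was 1.43 higher in adult than in adolescent cells and 2.20 higher in aged than in fetal cells. Of 11 macrophage markers 3 lay above the receptor percentile on all arrays, and of 8 mast cell markers 0 did, though mast cell means were 5.93 to 6.29 on fetal arrays and 4.53 to 4.98 on the others. The part of other cells in these values was not tested.

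**Figure D3:**
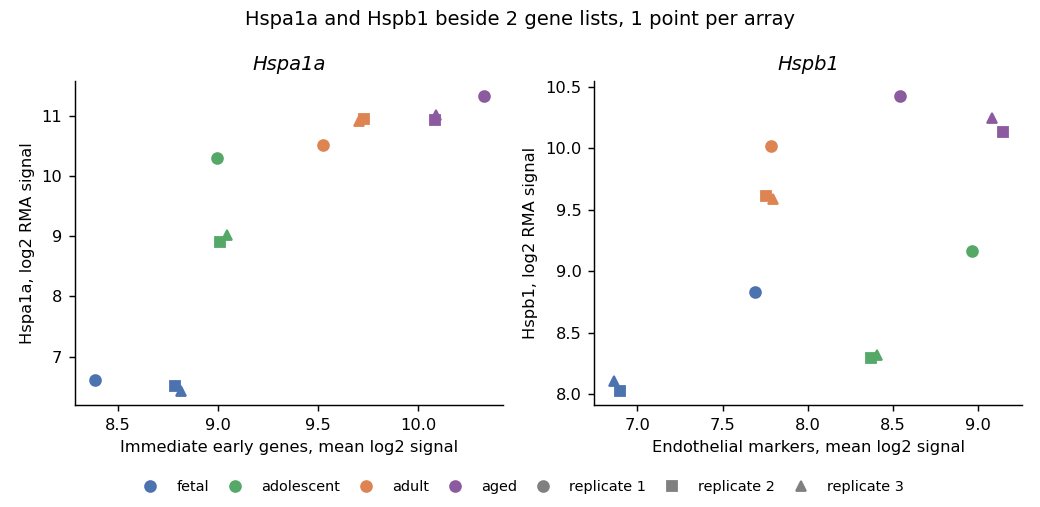
Left, log2 signal of Hspa1a (y axis) against the mean log2 signal of 25 immediate early genes (x axis); right, log2 signal of Hspb1 (y axis) against the mean of 12 endothelial markers (x axis), with 1 point per array, colour for stage and shape for replicate. Adult arrays have high Hspb1 (9.59 to 10.02) at a low endothelial mean (7.75 to 7.79), and adolescent replicate 1 lies above the other adolescent arrays in both panels.

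The wider chaperone network was described through 8 lists holding 99 further genes. In aged against fetal cells 16 of the 99 were higher and 42 lower (median -0.27, against 0.02 over all genes, of which 16.4% were higher and 19.4% lower). The chaperonins, barrel-shaped complexes that enclose a client for folding, were almost all lower in aged than in fetal cells. In aged against fetal cells 0 of 11 chaperonin genes were higher and 10 lower (median -0.63). The exception was Cct6b (0.20 ± 0.10), which lay below the receptor percentile on every array. Hspd1, the mitochondrial HSP60, stood at 10.78 to 10.89 on fetal and 9.64 to 9.83 on aged arrays and fell by 1.09 ± 0.12 (adjusted p = 9.21e-06). Of the cytosolic ring subunits, Cct7 fell by 0.91 ± 0.10, Cct3 by 0.84 ± 0.10 and Tcp1 by 0.85 ± 0.17. In aged against fetal cells the count of 10 was the same with quantile normalization repeated, with centred arrays and without the 3 arrays of raised background, 9 with replicate number in the model, 5 with replicates 2 and 3 averaged and 6 to 9 with 1 array left out.

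**Figure D4:**
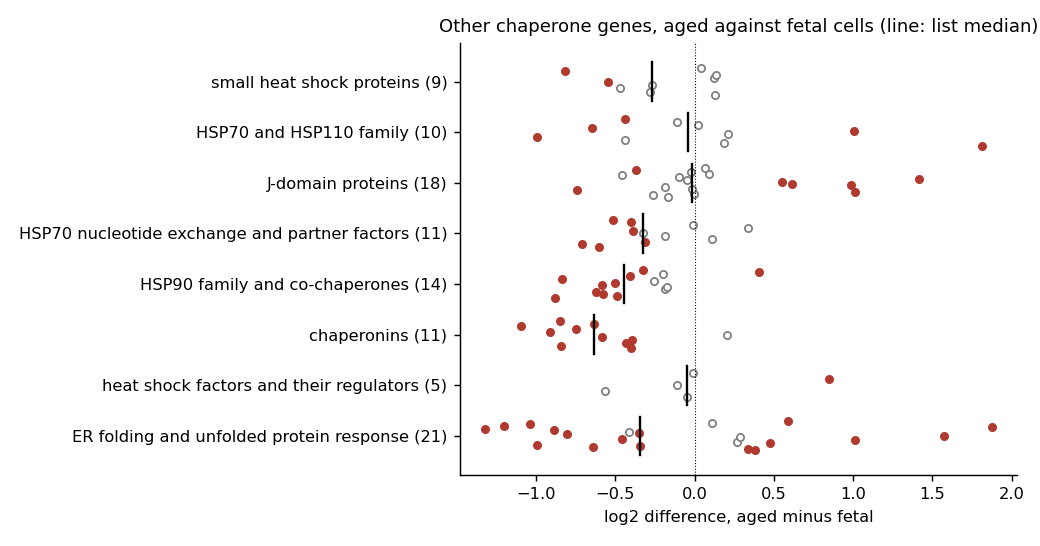
Log2 difference, aged minus fetal (x axis), of the 99 other chaperone genes in 8 lists (y axis, number of genes in brackets); filled red points had an adjusted p under 0.05 and open grey points did not, and the black line is the list median. Chaperonins lie to the left (median -0.63, 10 of 11 lower), while J-domain and endoplasmic reticulum lists hold genes on both sides.

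HSP90 and its co-chaperones gave 1 gene higher and 9 lower of 14 in aged against fetal cells (median -0.45). Of all genes, 16.4% were higher and 19.4% lower in that comparison. Ahsa1, which stimulates the HSP90 ATPase, fell by 0.88 ± 0.13, and Stip1, which links HSP70 to HSP90, by 0.84 ± 0.14. Hsp90b1, the HSP90 of the endoplasmic reticulum, fell by 0.59 ± 0.12 and Chordc1 by 0.58 ± 0.13. The gene that rose was Unc45a, a myosin chaperone (0.41 ± 0.11, chosen after its value was seen). Among 11 partner factors of HSP70, 0 were higher and 6 lower (median -0.33), with Bag2 (-0.71 ± 0.12), Bag1 (-0.60 ± 0.18) and the ubiquitin ligase gene Stub1 (-0.52 ± 0.14) lower and Grpel1 not passing (-0.33 ± 0.12, adjusted p = 0.051). That list lost most of its calls in other fits, with 1 gene lower when replicates 2 and 3 were averaged and 2 without aged replicate 1.

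The HSP70 and HSP110 family gave 2 of 10 genes higher and 3 lower in aged against fetal cells (median -0.05). The shares over all genes were 16.4% higher and 19.4% lower. Hspa12a, a distant HSP70 relative, was 3.52-fold higher, at 6.44 to 6.81 on fetal and 8.19 to 8.65 on aged arrays (1.82 ± 0.14, adjusted p = 4.36e-07). Hspa2, best known from the testis, was 2.00-fold higher (1.00 ± 0.10). Hspa4 fell by 0.65 ± 0.10, Hspa14 by 0.99 ± 0.15 and Hyou1, singled out after its value was seen, by 0.44 ± 0.11. Of 18 J-domain genes 5 were higher and 2 lower (median -0.02). Dnajb9, which acts on the unfolded protein sensor IRE1 in the endoplasmic reticulum, rose by 1.41 ± 0.21, Dnaja4 by 1.01 ± 0.14 and Dnajb2 by 0.98 ± 0.11, and so did Dnajb4 (0.61 ± 0.12) and Dnajb5 (0.55 ± 0.10). Dnajb11 fell by 0.74 ± 0.13 and Dnajc7 by 0.37 ± 0.12. Dnajb4, Dnajb5 and Dnajc7 were named after their values were seen.

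The other small heat shock protein genes gave few calls. In aged against fetal cells 0 of 9 were higher and 2 lower (median -0.27): Hspb8, the partner of BAG3 (-0.82 ± 0.13), and Hspb3 (-0.55 ± 0.13). Of all genes 16.4% were higher and 19.4% lower. Hspb3 was 5.36 to 5.69 on aged arrays, where the receptor percentile was 5.33 to 5.86. Cryab, the alphaB-crystallin of muscle, differed by -0.28 (95% interval -0.66 to 0.10) and Cryaa by 0.13 (-0.20 to 0.47). In adult against fetal cells 1 of the 9 was higher, Cryaa (0.53 ± 0.15, adjusted p = 0.0154, named after its value was seen), and 2 were lower. The shares of all genes there were 19.1% and 23.4%. Cryaa stood at 5.82 to 6.10 on fetal arrays and at 6.08 on adult replicate 1. It was 6.65 and 6.70 on adult replicates 2 and 3, which had raised receptor background. Of 5 heat shock factors and regulators, 1 was higher and 0 were lower in aged against fetal cells, beside 16.4% and 19.4% of all genes. In that comparison Hsf4 rose by 0.85 ± 0.11 (adjusted p = 5.88e-05). Hsf2 (-0.57 ± 0.21, adjusted p = 0.055), Hsf2bp (-0.11 ± 0.12) and Hsbp1 (-0.05 ± 0.19) did not pass there. Hsf4 was near background on fetal arrays, at 5.46 to 5.75 where the receptor percentile was 5.34 to 5.46.

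Genes of endoplasmic reticulum folding and the unfolded protein response went both ways around Hspa5. In aged against fetal cells 7 of 21 rose and 10 fell (median -0.35), against 16.4% and 19.4% of all genes. Herpud1, which takes part in degradation of reticulum proteins, rose by 1.57 ± 0.12 (8.70 to 8.73 on fetal and 10.21 to 10.32 on aged arrays), and Ern1, which encodes IRE1, by 1.01 ± 0.09. Sdf2l1 fell 2.30-fold (adjusted p = 6.94e-06) and Creld2 fell by 1.00 ± 0.10 on the log2 scale. Those that rose were Xbp1, Atf4, Atf6, Ddit3, Herpud1, Ern1 and Ppp1r15a. Those that fell were Sdf2l1, Creld2, Calr, Pdia4, Pdia6, P4hb, Serpinh1, Canx, Manf and Ero1a. Pdia3 (-0.41), Eif2ak3 (0.27), Ero1b (0.29) and Trib3 (0.11) did not pass. Genes of this list other than Herpud1, Ern1, Sdf2l1 and Creld2 were named after their results were seen.

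**Figure D5:**
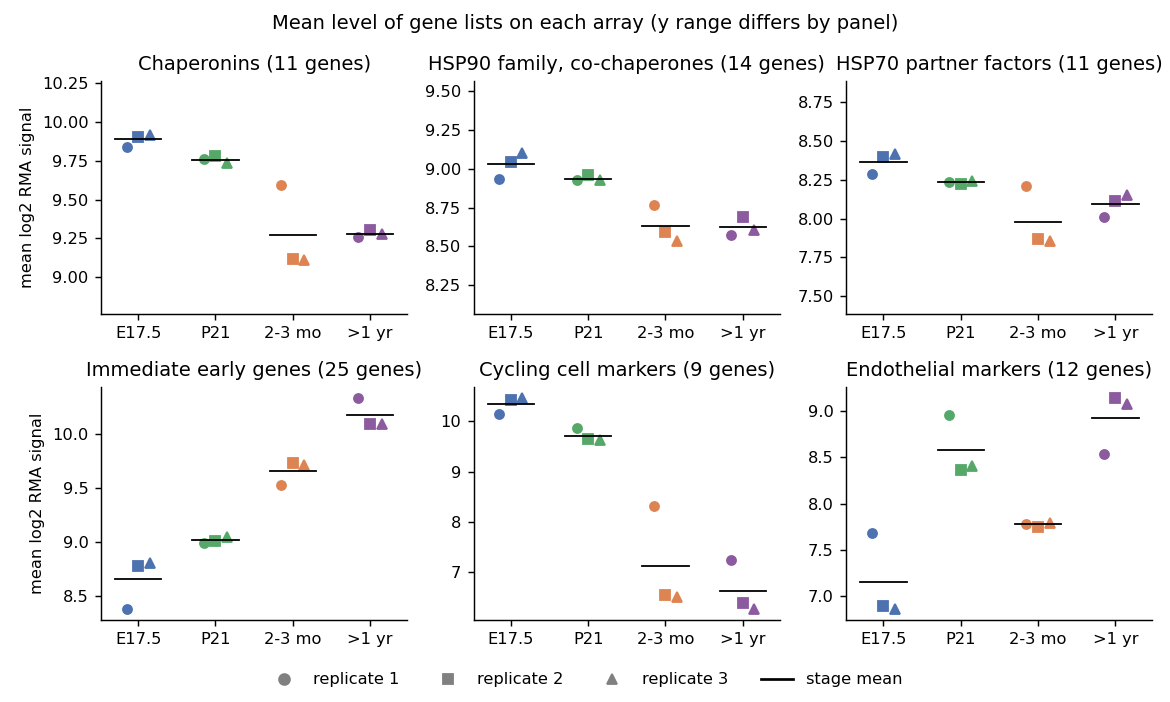
Mean log2 signal of 6 gene lists (y axis, range differs by panel) on each of the 12 arrays by stage, with marker shape for the replicate and a line for the stage mean. Immediate early genes rise from 8.38 on fetal replicate 1 to 10.33 on aged replicate 1, and adult replicate 1 stands above the other adult arrays for chaperonins, HSP70 partner factors and cycling cell markers.

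Most of the fall of the wider network lay between the adolescent and adult stages, where the arrays disagreed. In adult against adolescent cells 5 of the 99 genes were higher and 34 lower, where 4.56% and 15.2% of all genes were. The median of the 99 was -0.31, against 0.03 over all genes. For chaperonins 0 of 11 were higher and 7 lower (median -0.46). Adult replicate 1 had a chaperonin mean of 9.60 against 9.12 and 9.11 on the other adult arrays, which were the arrays with raised receptor background. Without adult replicate 1, 7 of the 99 were higher and 63 lower in adult against adolescent cells, beside 5061 and 5696 of 19938 genes. The counts were 1 and 14 without adult replicate 2 (383 and 1493 of all genes) or without adult replicate 3 (387 and 1551). With replicates 2 and 3 averaged they were 0 and 1 (76 and 247 of all genes). Only adult replicate 1 remains of its stage without the 3 arrays of raised background, so no count of the 99 is given there. With quantile normalization repeated or with centred arrays the count was 7 higher and 25 lower. Over all genes these fits gave 1988 and 1980, and 2233 and 2076. The median of the 99 was -0.13 and -0.21, against 0.03 and 0.13 over all genes. In adolescent against fetal cells 11 of the 99 were higher and 7 lower (median -0.02), against 10.1% and 8.68% of all genes. In aged against adult cells 2 were higher, Hspa2 (0.63 ± 0.10) and Hspa12b (0.77 ± 0.11), where 3.28% of all genes were. There 1 was lower, the collagen chaperone gene Serpinh1 (-0.58 ± 0.11), against 0.216% of all genes. Of the 99, 28 were higher and 5 lower in aged against adult cells without adult replicate 1, beside 4042 and 3802 of 19938 genes. The mean of 9 cycling cell markers moved with the chaperonins, at 10.16 to 10.47 on fetal, 9.63 to 9.87 on adolescent, 6.49 to 8.32 on adult and 6.25 to 7.23 on aged arrays, and the part of cell division was not tested.

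For the 3 genes with the smallest F-test p, the genes with the most similar profile were sought by Pearson's r over the 12 arrays among 12061 genes. The arrays share their stage, so a high r needs little more than an equal order of stages, and no p is given. Hspa1a was most like Slc7a8 (r = 0.994), an amino acid transporter gene, Mt2 (0.991), a metallothionein gene induced by metals and stress, and Runx1 (0.989), a transcription factor gene. Slc7a8 went from a mean of 6.88 ± 0.18 (SD, n = 3) in fetal to 10.82 ± 0.03 in aged cells. Hspb1 was most like Idua (0.970), which encodes a lysosomal enzyme, Letm2 (0.962) and Ahr (0.962), the aryl hydrocarbon receptor gene. Hsph1 was most like Abt1 (0.978), Pabpn1 (0.977), which encodes a poly(A)-binding protein, and Slc2a4 (0.965), the gene of the insulin-regulated glucose transporter.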

How the data were processed

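Gene expression was measured on 12 single-colour Affymetrix arrays, 3 for each of 4 stages. Per the submitters' processing notes, the authors used Affymetrix Expression Console 1.2.1.20 with RMA, and the deposited values are log2 signals. They were used without further transformation, so that background correction and normalization are the authors'. The genome build is not given in the sources used here, and scanner files were not used.

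Of 35556 probe sets, 21789 carried 1 gene symbol, 1621 several and 12146 none in the annotation used. The probe set with the highest mean was kept for each of 19938 genes. A mean per stage was fitted to all 12 arrays with limma 3.58.1 in R 4.3.3 (moderated variance, 8 residual degrees of freedom), and a gene passed, "rose" or "fell" where its p, adjusted by Benjamini-Hochberg across all 19938 genes, was under 0.05. Intervals are 95% intervals without adjustment for the number of genes. On simulated arrays of 19938 genes, 200 of them changed, 61 of 67 genes changed 2-fold were recovered in aged against fetal cells. Of 67 changed 1.5-fold 25 were recovered, and there were 5 false calls. The simulated arrays varied independently, and 7138 genes passed in the real comparison, so these rates may not hold for the real arrays.

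Samples were grouped by the labels. The labels state no pairing. Deviations of equal replicate numbers correlated at 0.362, 0.317 and 0.239 in adult against adolescent cells, where replicate number as a block changed no call of the 8 genes; the check comes from the values alone.

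The genes, the lists and the named genes were chosen with earlier results of these data known. Genes named from a list are the 4 with the smallest F-test p, unless said otherwise. List counts leave the 10 genes out. Among the list names used here, Hsp90ab1, Ccnb1 and Ly6a had no probe set with 1 symbol. Promoter windows are RefSeq's for GRCm38.p6, found by symbol for Hspa1a, Hspa1b, Hspa5, Hsph1, Hspb1, Dnajb1 and Bag3. Results were recomputed with each array left out, with the block, with a trended and robust variance, in a fit of only the 2 stages compared, with probe sets averaged per gene, after a filter at a highest stage mean of 6, with centred arrays and with quantile normalization repeated. Averaging replicates 2 and 3, leaving out fetal replicate 1 with adolescent replicate 1 (more endothelial signal), and leaving out the 3 arrays of raised receptor background were chosen after seeing the data.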

Additional observations from a re-analysis of the deposited data

How the results depend on the processing

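Across the comparisons and the F-test, 364 values of the 8 genes kept their call when 1 array was left out, 17 lost the call and 3 gained one. Under the other alternatives 494 kept the call, 32 lost it and 10 gained one. A value that passed in neither fit counts as kept, whatever its direction. The numbers of the 8 genes passing without an array ran from 2 to 3 in adolescent against fetal, 2 to 4 in adult against adolescent, 0 to 2 in aged against adult, 5 in adult against fetal, 5 to 6 in aged against fetal and 4 in aged against adolescent cells, and 6 passed the F-test throughout. Over all genes these ranges were 2690 to 3330, 1876 to 10757, 214 to 7844, 5923 to 12968, 5893 to 6928, 2693 to 4144 and, for the F-test, 6665 to 14192. The upper ends of 10757, 7844, 12968 and 14192 were reached without adult replicate 1. With replicates 2 and 3 averaged, which leaves 2 samples a stage, the genes passing numbered 1472, 323, 2, 3532, 4140, 1122 and 3430 in the same order. Those of the 8 numbered 4 in aged against fetal, 2 in adult against fetal, 1 in adolescent against fetal and 1 in aged against adolescent cells. They numbered 2 by the F-test and 0 in both adult against adolescent and aged against adult cells. The fit of the 2 stages compared called 2145 genes in adult against adolescent and 176 in aged against adult cells. Without fetal replicate 1 and adolescent replicate 1, 2419 passed in adult against adolescent cells. Without the 3 arrays of raised background 1586, 1608 and 6351 passed in adult against adolescent, aged against adult and aged against adolescent cells, and Stip1 turned to -0.43 in aged against adult cells (adjusted p = 0.0397). The cause was not tested. In aged against adult cells 0 of the 8 passed under quantile normalization, centring, the fit of the 2 stages, averaging or the replicate block. In adult against adolescent cells 3458 genes passed with the replicate block and in aged against adult cells 518, and besides Dnajb1 in aged against adult cells (adjusted p = 0.08) the block ended the calls of Hsp90aa1 in adolescent against fetal (0.065) and aged against fetal cells (0.065). Outside adult against adolescent cells equal numbers did not deviate together in every pair (-0.435 to 0.273), and in none of the comparisons did every array correlate best with its own number. Higher and lower genes numbered 621 and 147 with repeated quantile normalization in aged against adult cells (654 and 43 as deposited) and 2303 and 2145 in aged against adolescent cells (1611 and 2288).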
